A study of Mus musculus with 4 samples.

Results

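The late state of a mouse NRASG12V/Mll-AF9 acute myeloid leukaemia sample was described, 96 h after NRASG12V expression was switched off. The library taken then was set against the library with NRASG12V on. A gene entered the comparison when it reached 1 FPKM in either library, which 11729 of the 23235 genes in the deposited table did. FPKM is a fragment count scaled to the length of the transcript and to the depth of the library, so levels can be compared between genes. The change of a gene is given throughout as log2((96 h FPKM + 1)/(on FPKM + 1)), which gives too small a change for genes of low level. A gene was counted as higher or lower when it differed at least 2-fold on that scale.

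All 4 libraries of the study are labelled with the same genotype, NRASG12V/Mll-AF9. All came from SCID/Beige mice, a host strain with immune defects, that had received the leukaemia cells through the tail vein. The mice had been aged for 20 days, to a white cell count above 100000 per microlitre. The 3 off groups (48 h, 72 h and 96 h) had doxycycline, which switches NRASG12V off in this model, by intraperitoneal injection at time 0 and in the drinking water from then on; the on group is labelled as expressing NRASG12V. The labels attach the same doxycycline protocol to every sample, the on sample included, and do not say whether the on mice had the drug. Each group is 1 library, so none of the differences below has a replicate check and no p-value is given.

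No group is labelled as a doxycycline control with NRASG12V on, so the switch, the drug and the elapsed time cannot be told apart. The labels call the source leukaemia and give neither the tissue that was harvested, nor the age or sex of the mice, nor whether a library is 1 mouse, nor the promoter of the transgene or the number of leukaemia clones. RNA was total RNA from whole samples. In such bulk RNA, fewer cells of a type and less RNA per cell of that type cannot be told apart. Nor can RNA of the leukaemia cells be told apart from RNA of host cells in the same sample.

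NRAS is a small GTPase that, when active, signals through the RAF, MEK and ERK kinases, and MLL-AF9 is a fusion protein that keeps Hoxa genes and other progenitor genes switched on. Red cells mature in erythroblast stages during which GATA1 and KLF1 drive the genes of globin, haem and the membrane skeleton. Neutrophils make their granule proteins in a fixed order, primary granules in promyelocytes, then secondary and later granules, and eosinophils fill theirs with a separate set of toxic proteins.

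Where 4 levels stand in a row they are those of the on, 48 h, 72 h and 96 h libraries, in that order, in FPKM and on the scale of the 96 h table. Nras, the endogenous gene of the oncogene that was switched, stood at 23.2, 16.2, 17.05 and 18.4 FPKM. Its change at 96 h was -0.32, less than 2-fold. The labels do not say whether the transgene would be counted in this row, so its level checks the switch only in part. Mll1, the 5′ partner of the fusion, went from 2.94 to 4.55 FPKM (0.49), and Mllt3, the mouse gene of AF9, from 3.92 to 13.8 FPKM (1.58). The 96 h library held 1.19 times as many reads per unit of FPKM as the on library, and 1 FPKM over a transcript of 2 kb was worth about 36.5 reads in the on library and 43.4 at 96 h. Among the genes that entered, 14 are listed at exactly 0 at 96 h and 33 in the on library, of which 8 and 26 are short RNA genes (microRNAs and small nucleolar RNAs). A listed 0 may be an estimate that failed. Genes listed at 0 stay in the counts, but the size of their change is set by the pseudocount of 1 FPKM and is not a measured fold.

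At 96 h, 867 genes were at least 2-fold higher than in the on library, which is 7.39% of those compared, and 957 were at least 2-fold lower, which is 8.16%. The other 9905 genes, or 84.4%, lay between. At least 4-fold differences were found for 173 genes in the higher and 104 in the lower direction, and at least 8-fold for 22 and 32. The median change of all genes was -0.06, with quartiles of -0.47 and 0.35. Of the 11729 genes, 569 entered through the 96 h library alone and 390 through the on library alone. The 867 higher genes include 157 of the former, and the 957 lower genes include 123 of the latter. Just inside the entry level stood Dact1, at 0.355 and 1.0004 FPKM, and Sema5a, at 0.498 and 1.0018 FPKM. Just outside it stood Zfp438, at 0.828 and 0.99959 FPKM, and Pacsin1, at 0.99905 and 0.650 FPKM.

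These counts depend on how the libraries are put on 1 scale. With both libraries rescaled to the same sum outside globins and short RNAs, every 96 h level was 1.141 times higher, the median of all genes moved by 0.17, from -0.06 to 0.11, and the split became 1170 higher and 673 lower. The higher genes were 47.5% of all called genes as deposited and 63.5% after rescaling. The medians of 6 lists that lay close to 0 changed sign under it: D cyclins and Cdk inhibitors, cell death and p53, dendritic cell, heat shock, histone genes and respiratory chain. No direction is drawn for these 6 lists. The 49 lists of genes described below were matched for 1119 of their 1123 entries. Some genes stand in more than 1 list, so these entries are 1029 genes. Each count of a list is to be read beside the 7.39% higher and 8.16% lower over all genes. Where only a few genes of a list are past 2-fold, the count may be no more than those shares.

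**Figure D1:**
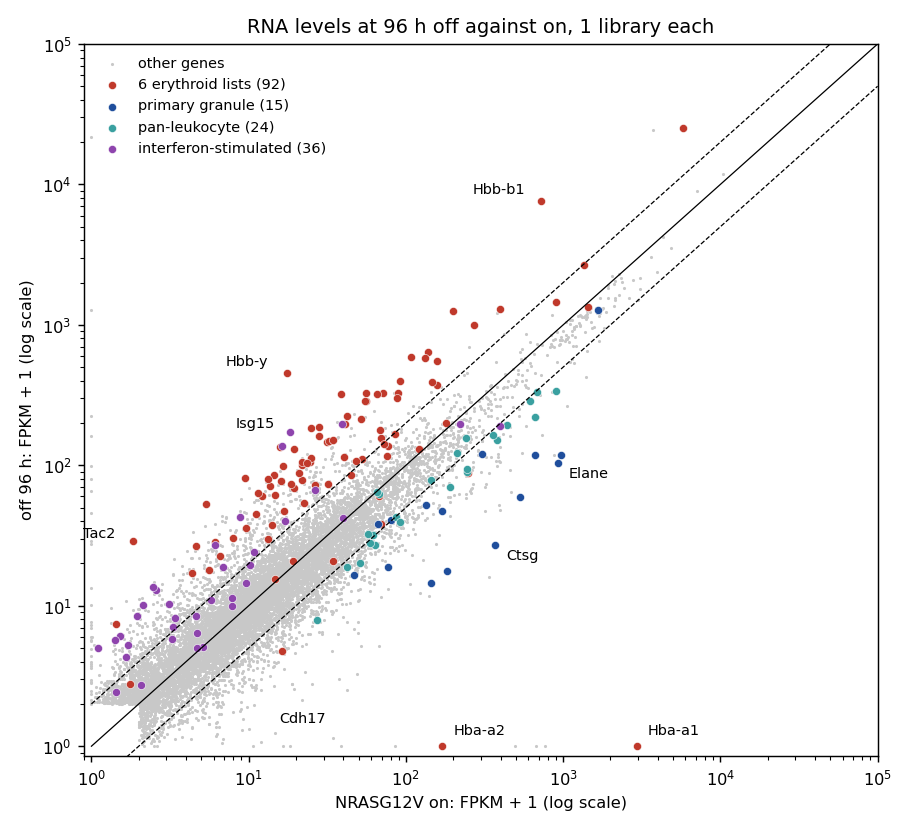
Each point is a gene, with its FPKM + 1 in the on library on the x axis and at 96 h on the y axis, both on log scales; the solid line is equality and the dashed lines mark 2-fold. The erythroid genes lie mostly above the upper dashed line, the primary granule genes mostly below the lower one, and Hba-a1 and Hba-a2 lie on the floor because they are listed at 0 at 96 h; the short RNA gene Mir3064 lies beyond the y axis.

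The makeup of the sample at 96 h was led by beta globins. The adult beta globins, that is Hbb-b1, Hbb-b2 and a row named Beta-s that was added to them after its values were seen, summed to 10288 FPKM in the on library and to 30635, 49776 and 57189 FPKM at 48 h, 72 h and 96 h. Of all summed FPKM outside short RNAs, the globins other than alpha took 2.06%, 6.74%, 10.5% and 11.9% in the same order. Each step was upward, and the 96 h library had the highest share of the 4. Adult alpha globin cannot be followed to 96 h. Hba-a1 stood at 2938 FPKM in the on library, at 8656 and 11690 FPKM at 48 h and 72 h, and is listed at 0 at 96 h. Hba-a2 stood at 169.7, 501 and 416 FPKM and is also listed at 0 at 96 h. The adult beta globins, which pair with alpha chains in the same cells, were at their highest in the very library where the alpha rows read 0.

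With short RNA genes set aside, the most abundant row at 96 h was Hbb-b2, at 25211 FPKM, followed by Beta-s at 24376 FPKM and by the neutrophil calcium-binding proteins S100a9 at 11917 and S100a8 at 8951 FPKM. In the on library, with short RNA genes again set aside, S100a9 led at 10402 FPKM, S100a8 followed at 7118 and Hbb-b2 was the third at 5815 FPKM. The 10 most abundant genes held 9.96% of the summed FPKM in the on library, short RNAs left out, and 18.6%, 21.7% and 19.4% in the 48 h, 72 h and 96 h libraries. The off libraries were thus more concentrated in a few genes than the on library.

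**Figure D2:**
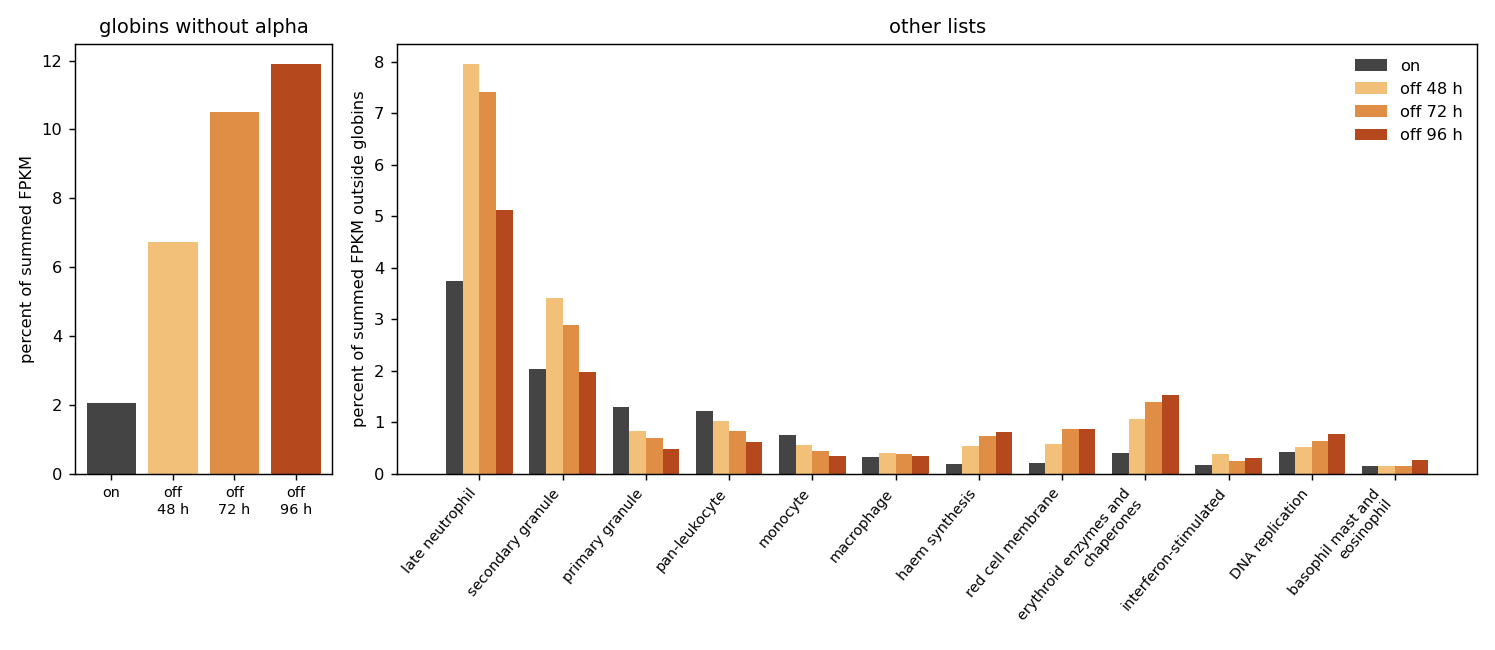
The y axes give the percent of summed FPKM, outside short RNAs, taken by the globins without alpha (left) and, with globins also left out of the sum, by 12 gene lists (right), as bars from 0, 1 library per bar. Globins other than alpha go from 2.06% to 11.9%, late neutrophil genes are highest at 48 h (7.95%) and lower at 96 h (5.13%), and primary granule genes go from 1.30% to 0.482%. Most of the late neutrophil share is S100a8 and S100a9.

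Most genes of the erythroid lists were on the higher side at 96 h. Of 93 genes in 6 erythroid lists, 92 entered the comparison, 72 were at least 2-fold higher, 4 were lower (Hba-a1 and Hba-a2, listed at 0, and Hmox1 and Slc2a1) and 16 lay between, beside 7.39% and 8.16% over all genes. Their median change was 1.998 and 46 of them were at least 4-fold higher. In 59 of the 92, the 96 h library had the highest level of the 4 libraries, beside 26.5% of all genes. The lists and these libraries were known together when the lists were drawn up, so the counts describe the libraries and are no independent support.

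The globin list had 8 genes in the comparison, 5 of them higher and 2, the alpha genes listed at 0, lower. The adult beta globin Hbb-b1 had levels of 722, 3108, 4727 and 7602 FPKM, a change of 3.40 at 96 h. Hbb-b2, the other, stood at 5815, 17131, 25681 and 25211 FPKM (2.12). Reads may be divided between these near-identical copies, so their sum is the safer value. Hbb-y, an embryonic beta-like globin, had the largest change on the higher side outside short RNA and predicted genes: it stood at 16.4, 320.3, 480.0 and 455 FPKM, a change of 4.71. It made up 0.160% of all beta-like globin in the on library, 1.04% at 48 h, 0.955% at 72 h and 0.789% at 96 h. So its share was highest at 48 h while its level was highest at 72 h. Hbb-bh1, a second embryonic beta-like gene, stood at 0.429, 4.39, 3.97 and 6.42 FPKM (2.38). Hba-x, the embryonic alpha gene, stayed under 1 FPKM in all 4 libraries and did not enter. The alpha-like Hbq1b went from 6.94 to 29.1 FPKM (1.92) and Hbq1a from 0.761 to 1.78 FPKM (0.66).

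Of 16 erythroid transcription factors, 11 were higher and none lower, with a median of 1.21. Klf1, the activator of adult beta globin, stood at 23.8, 127, 138 and 184 FPKM and had the largest change of the list, 2.90. Zfpm1, the cofactor of GATA1 known as FOG1, stood at 26.9, 126, 126 and 160.03 FPKM (2.53). Tal1, a partner of GATA1 on erythroid enhancers, stood at 20.9, 71.0, 92.1 and 105 FPKM (2.27), and Gata1 itself at 20.8, 61.9, 75.9 and 99.4 FPKM (2.20). All 4 of these factors were highest at 96 h. Sox6 and Bcl11a, which silence embryonic globin genes, changed by 1.97 and 1.17, in the same direction as Hbb-y. Foxo3, active in late erythroblasts, changed by 1.41. Lmo2 and Ldb1, scaffolds of the GATA1 complex, changed by 0.96 and 0.94 and so fell just short of 2-fold. Myb, a factor of early progenitors, went the other way, from 33.5 to 19.9 FPKM (-0.73), which is less than 2-fold.

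Every step of haem synthesis was covered, and 12 of 13 genes of that list were higher, with a median of 2.005. Alas2, the erythroid form of the first and rate-limiting enzyme, stood at 138, 409.8, 641 and 644 FPKM (2.22). Uros, which closes the porphyrin ring, stood at 8.44, 53.8, 60.1 and 79.8 FPKM and had the largest change of the list, 3.10. Cpox and Ppox, oxidases of the later steps, changed by 2.27 and 2.27. Fech, which inserts iron, stood at 86.8, 205, 323 and 300.01 FPKM (1.78) and was the only haem gene whose 72 h level exceeded the 96 h level. The gene short of 2-fold was Slc25a39, a mitochondrial carrier, at 71.3, 103, 121 and 142 FPKM (0.98). In 12 of the 13, the 96 h level was the highest of the 4.

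Of 13 genes for iron handling, 7 were higher and 1 lower, with a median of 1.43. The importers led. Trfr2, a second transferrin receptor, stood at 3.65, 13.5, 17.3 and 25.4 FPKM (2.51). Tfrc, the main transferrin receptor, stood at 55.0, 205, 282 and 284 FPKM (2.35), and Slc25a37, mitoferrin, at 90.2, 283, 450.3 and 399 FPKM (2.13). The ferritin chains differed from each other: Fth1 stood at 1350.5, 2198, 2276 and 2657 FPKM (0.98) and Ftl1 at 1433, 1396, 1261 and 1337 FPKM (-0.10). The gene on the lower side was Hmox1, haem oxygenase, which breaks haem down and is also a macrophage gene, at 248, 72.5, 93.5 and 86.9 FPKM (-1.500).

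Among 23 red cell membrane genes, 19 were higher, 1 was lower and 3 lay between, with a median of 2.19. Kel, the Kell blood group protein, stood at 14.9, 78.8, 127 and 134 FPKM (3.09). Spna1, alpha spectrin of the membrane skeleton, stood at 18.3, 79.1, 141 and 129.7 FPKM (2.76). Ermap, an erythroid adhesion protein, stood at 27.1, 113, 169 and 188 FPKM (2.75). These are the 3 with the largest changes in the list. Slc4a1, the band 3 anion exchanger and its most abundant member, stood at 269.6, 658, 1051 and 991 FPKM (1.87). In 15 of the 23 the 96 h level was the highest of the 4. The gene on the lower side was Slc2a1, a glucose transporter that mouse red cells carry only before and around birth, at 15.3, 6.27, 4.23 and 3.79 FPKM (-1.77). Cd44, an adhesion molecule that erythroblasts lose as they mature and leukocytes also carry, stood at 67.97, 49.5, 49.7 and 36.9 FPKM (-0.86), less than 2-fold.

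Of 19 erythroid enzymes and chaperones, 18 were higher and none lower, with a median of 2.14. Tac2, a tachykinin precursor, stood at 0.843, 10.3, 18.6 and 27.8 FPKM, a change of 3.97. Outside short RNA and predicted genes it was second to Hbb-y on the higher side. Fn3k, which removes sugar from glycated proteins, stood at 4.38, 34.9, 45.5 and 52.2 FPKM (3.31). Car1 and Car2, carbonic anhydrases, stood at 37.7, 167, 227 and 319 FPKM (3.05) and 197, 793, 1103 and 1261 FPKM (2.67). Both were highest at 96 h. Epor, the erythropoietin receptor, stood at 12.6, 41.6, 52.4 and 69.8 FPKM (2.38). Prdx2, a peroxiredoxin, was the most abundant of those past 2-fold, at 398, 922, 1170.0 and 1305 FPKM (1.71). The antioxidant Gpx1 was the one short of 2-fold (0.70). In 12 of the 19 the 96 h level was the highest of the 4, and the other 7, Bpgm, Trim10 and Trim58 among them, were highest at 72 h.

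The promoters of a haem gene and a membrane gene of these lists are shown because they carry the motifs searched for. They are the 250 bases before the RefSeq start site, on build GRCm38.p6, written 5′ to 3′ on the strand of the gene, with motif letters in capitals. Alas2 lies on the plus strand at chrX:150547167-150547416 and Kel on the minus strand at chr6:41704326-41704575. The motifs were AGATAA for the GATA factors and CCNCNCCC for the CACCC boxes of the Klf family, on both strands and with overlapping matches kept.

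Alas2: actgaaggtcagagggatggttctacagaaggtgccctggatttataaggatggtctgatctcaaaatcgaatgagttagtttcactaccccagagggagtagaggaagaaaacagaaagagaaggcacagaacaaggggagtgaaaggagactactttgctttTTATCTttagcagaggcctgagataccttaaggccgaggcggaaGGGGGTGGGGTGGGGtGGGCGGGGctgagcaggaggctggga

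Kel: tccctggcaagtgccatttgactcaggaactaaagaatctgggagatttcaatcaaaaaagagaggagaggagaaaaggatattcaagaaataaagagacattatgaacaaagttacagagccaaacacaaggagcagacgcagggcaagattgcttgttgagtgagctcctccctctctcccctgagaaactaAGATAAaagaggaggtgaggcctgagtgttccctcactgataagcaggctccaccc

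Alas2 holds a GATA match 86 bases before its start and CACCC matches at 42, 40, 35 and 26 bases. Kel holds a GATA match at 56 bases. Of the 93 erythroid genes, 64 had a promoter in the RefSeq table, with 87 promoters in all. GATA matches were in 13.8% of these 87, beside 9.99% of all 32851 promoters of the same length, and CACCC matches in 57.5%, beside 45.9%. In the pan-leukocyte, primary granule and interferon-stimulated lists described below, GATA matches were in 9.09%, 0% and 13.3% of promoters. CACCC matches were in 63.6%, 50% and 40% of them. So neither motif was particular to the erythroid lists. A match is a run of letters, and none of these libraries measured binding.

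Genes tied to early erythroid progenitors were mixed: 4 of 10 were higher and 1 was lower. Tmem56 changed by 2.33, Vamp5 by 1.67 and Slc14a1, a urea transporter of red cells, by 1.66. Epor, counted above, is the other. Kit, the stem cell factor receptor of early progenitors, stood at 9.35, 10.3, 10.5 and 10.3 FPKM (0.13), and Gata2, the GATA factor that GATA1 replaces, at 7.34, 3.33, 3.22 and 2.74 FPKM (-1.16). Cd9, Mt2, Cnrip1 and Apoe changed by -0.09, 0.54, 0.10 and 0.15. Thus Kit was nearly level while the erythroid factor Klf1 changed by 2.90.

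Megakaryocyte and platelet genes lay mostly between: 1 of 20 was higher and 1 lower, with a median of 0.65. Gp6, the platelet collagen receptor, stood at 1.78, 6.41, 5.98 and 6.27 FPKM (1.39) and Ppbp, the most abundant, at 162.6, 237, 255 and 296 FPKM (0.86). Itga2b and Vwf changed by 0.72 and 0.97. The gene on the lower side was Selp, P-selectin, at 25.7, 8.04, 8.89 and 7.50 FPKM (-1.65). After rescaling outside globins, 6 of the 20 passed 2-fold on the higher side.

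**Figure D3:**
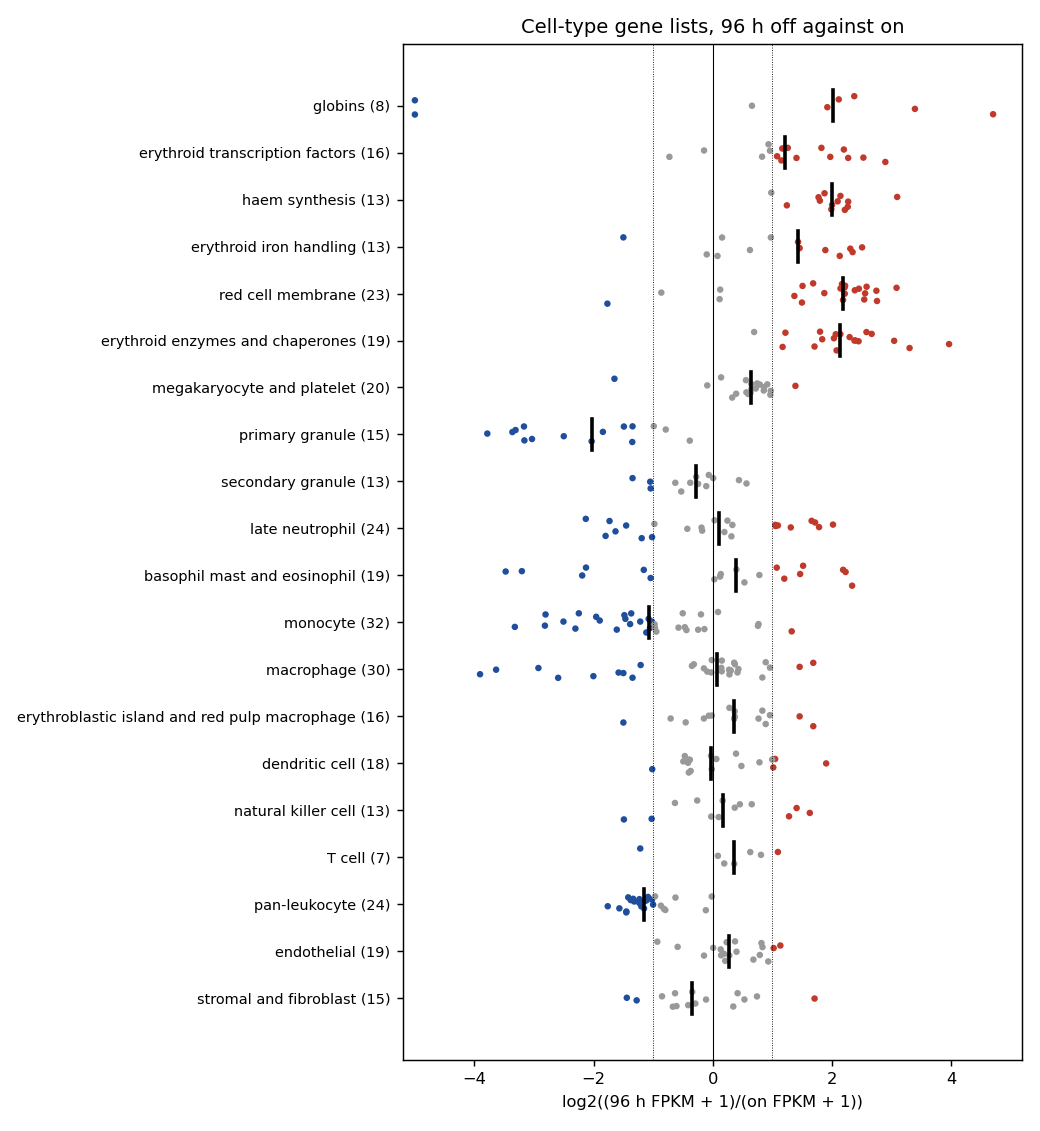
Each point is a list member that entered the comparison, at its log2 change from on to 96 h on the x axis, with lists as rows and their number of members in brackets; bars are medians, dotted lines mark 2-fold, and red and blue points are past it. Hba-a1 (-11.52) and Hba-a2 (-7.42) are drawn at the left limit of -5. Erythroid medians lie between 1.21 and 2.19, primary granule genes have a median of -2.03 and pan-leukocyte genes one of -1.15.

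On the lower side stood genes shared by most white cells. Of 24 pan-leukocyte genes, none was higher and 17 were lower, with a median of -1.15, and their summed level went from 5961 to 2649 FPKM. In all 24 the 96 h library was the lowest of the 4, beside 25.3% of all genes. Coro1a, an actin regulator of leukocytes, stood at 657, 368, 283 and 221 FPKM (-1.57). Cytip, an adhesion adaptor, stood at 26.0, 10.96, 10.02 and 6.97 FPKM and had the largest change of the list (-1.76). Arhgdib, the most abundant of the list, stood at 899, 615, 489 and 336 FPKM (-1.42). Ptprc, which encodes CD45, was an exception in its course, at 66.2, 95.5, 89.4 and 61.1 FPKM (-0.12). So Coro1a was lower at each later time, while Ptprc was above its on level at 48 h and 72 h and close to it at 96 h. After rescaling outside globins 11 of the 24 were past 2-fold, with a median of -0.96. Beside this stand the 72 of 92 erythroid genes on the higher side; how far the makeup of the sample entered the levels of myeloid genes was not tested.

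The primary granule list, mostly genes made at the promyelocyte stage, had the lowest median of the myeloid lists, -2.03, with 12 of 15 lower and none higher. It also holds Hp (-1.35), which stands in the secondary granule list too, Nkg7 (-1.49), also a natural killer cell gene, and the transcription factor Cebpe (-0.99). Elane, neutrophil elastase, stood at 927, 131, 111 and 102 FPKM (-3.17). Mpo, myeloperoxidase, stood at 971, 131, 129 and 118 FPKM (-3.03). Ctsg, cathepsin G, stood at 369.8, 26.1, 31.9 and 25.9 FPKM and had the largest change of the list (-3.78). Most of the difference was already present at 48 h for Elane, Mpo and Ctsg, and their levels at 96 h lay close to those at 72 h. Ms4a3, a marker of granulocyte and monocyte progenitors, stood at 181, 24.8, 21.02 and 16.7 FPKM (-3.36), and Prtn3, proteinase 3, at 529, 65.7, 56.4 and 58.2 FPKM (-3.16). Lyz2, lysozyme, is made through later stages too and was the most abundant of the list, at 1677, 2263, 1894 and 1284 FPKM (-0.38). Cebpe, Lyz2 and Igsf6 were the 3 that lay between.

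Secondary granule genes, made at the myelocyte stage, followed another course. At 96 h none of 13 was at least 2-fold higher and 3 were lower (Orm1, Chi3l3 and Hp, which was also counted above), with a median of -0.28. Ltf, lactoferrin, stood at 578, 1662, 1313 and 857 FPKM (0.57). Ngp, neutrophilic granule protein and the most abundant, stood at 3617, 5239, 4384 and 3052 FPKM (-0.24), and Camp, cathelicidin, at 2325, 3261, 2730.5 and 2157 FPKM (-0.11). All 3 were highest at 48 h and lower at each later time. Against the 48 h library the median of the list at 96 h was -0.85, and in 10 of 13 the 96 h level was the lowest of the 4. The ratio of Prtn3 to Ltf was 0.915 in the on library and 0.0395, 0.0429 and 0.0679 at 48 h, 72 h and 96 h.

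Late neutrophil genes were divided at 96 h, with 8 of 24 higher, 7 lower and a median of 0.11. Mmp8, a collagenase, stood at 22.3, 153, 161 and 93.5 FPKM (2.02). Retnlg, a resistin-like protein of mature neutrophils, stood at 158, 904, 885 and 549 FPKM (1.79), and Il1b at 2.04, 15.6, 13.02 and 9.001 FPKM (1.72). The receptors Cxcr2, for chemokines, and Csf3r, for G-CSF, changed by 1.05 and 1.06. These genes were all highest at 48 h or 72 h and lower at 96 h, though still above the on library. On the lower side, Ccl6, a chemokine, stood at 92.8, 51.2, 50.5 and 26.0 FPKM (-1.80). None of the 24 was highest at 96 h, and their median at 96 h was -0.75 against 48 h and -0.67 against 72 h. With short RNAs left out, S100a8 and S100a9 together took 3.50%, 6.87%, 6.08% and 4.30% of the summed FPKM. The whole list took 3.64%, 7.25%, 6.45% and 4.52%, so most of its share was these 2 genes.

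**Figure D4:**
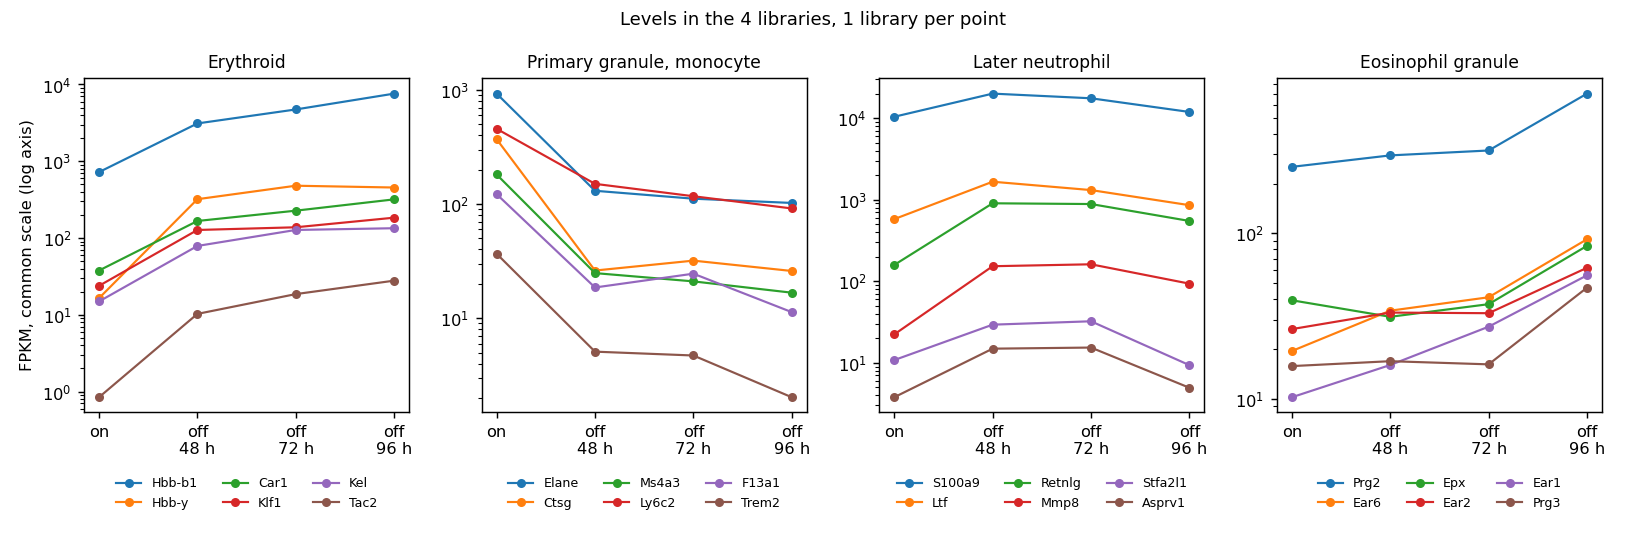
Levels in FPKM, on log y axes that differ between panels, in the on library and the 3 off libraries in order of time, 1 point per library and 1 line per gene. The erythroid genes are at or near their highest at 96 h, primary granule and monocyte genes are lowest or near it, later neutrophil genes peak at 48 h or 72 h, and eosinophil granule genes are highest at 96 h.

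Monocyte genes were mostly lower: 18 of 32 were lower and 1 was higher, with a median of -1.06, and in 27 the 96 h level was the lowest of the 4. F13a1, the A subunit of coagulation factor XIII, stood at 122, 18.6, 24.5 and 11.3 FPKM (-3.32). Klf4, a factor of monocyte differentiation, stood at 32.8, 6.33, 5.49 and 3.80 FPKM (-2.82). Ly6c2, the Ly6C antigen of inflammatory monocytes, stood at 456, 150.2, 117 and 91.5 FPKM (-2.31). The most abundant, Psap, a lysosomal saposin precursor, stood at 1409.5, 982, 759.6 and 650.3 FPKM (-1.11). Vcan, a proteoglycan, had the next largest change (-2.81), from 8.12 to 0.304 FPKM. Csf1r, the M-CSF receptor, changed by -0.57, less than 2-fold. Ifi27l2a, on the higher side (1.33), is also interferon-stimulated. After rescaling outside globins 14 of the 32 were lower, with a median of -0.88.

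Macrophage genes differed in both directions. Of 30, 2 were higher and 9 lower, with a median of 0.06, and after rescaling outside globins 5 were higher and 9 lower. Spp1, osteopontin, stood at 47.7, 2.98, 4.63 and 2.25 FPKM (-3.91). Trem2, a lipid receptor, stood at 36.7, 5.09, 4.71 and 2.03 FPKM (-3.64), and Msr1, a scavenger receptor, at 18.3, 3.04, 3.46 and 1.54 FPKM (-2.93). Arg1, arginase, changed by -2.59, from 5.82 to 0.129 FPKM. The complement genes C1qa, C1qb and C1qc, general markers of tissue macrophages, changed by 0.42, -0.02 and 0.27, and Emr1, the F4/80 antigen, by -0.15. Cd68, another macrophage antigen, was lower, at 108, 65.0, 51.7 and 42.1 FPKM (-1.35). The macrophage antigens thus differed among themselves. On the higher side were Timd4, a receptor of resident macrophages, at 0.407, 3.28, 3.08 and 3.53 FPKM (1.69), and Slc40a1, the iron exporter ferroportin, at 25.4, 59.5, 77.0 and 71.5 FPKM (1.46).

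A list for macrophages of erythroblastic islands and splenic red pulp had 2 of 16 genes higher, the same Timd4 and Slc40a1, and 1 lower, with a median of 0.36. Spic, the factor of red pulp macrophages, stood at 8.96, 13.9, 15.7 and 18.4 FPKM (0.96). Vcam1, the adhesion molecule that holds erythroblasts, stood at 33.2, 58.8, 71.3 and 62.4 FPKM (0.89), and Siglec1 at 3.43, 7.68, 4.54 and 4.73 FPKM (0.37). Hmox1, the member on the lower side, was -1.500. Red pulp macrophages belong to the spleen, but Spic and Slc40a1 are also made elsewhere, and the harvested tissue is not given in the labels.

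Genes of basophils, mast cells and eosinophils went in both directions. Of 19 in the comparison, 7 were higher and 6 lower. All 7 on the higher side are eosinophil granule or receptor genes. Prg2, major basic protein, stood at 252, 296, 317 and 699.9 FPKM (1.47). Epx, eosinophil peroxidase, stood at 39.4, 31.3, 37.3 and 84.1 FPKM (1.07), and Prg3, a second major basic protein, at 15.7, 16.9, 16.1 and 46.95 FPKM (1.52). These 3 were nearly level up to 72 h and then 2-fold or more higher in the 96 h library. The eosinophil ribonucleases Ear1, Ear2 and Ear6 stood at 10.2, 15.99, 27.3 and 55.7, at 26.4, 33.2, 32.9 and 61.9 and at 19.4, 34.1, 41.1 and 92.1 FPKM, with changes of 2.34, 1.202 and 2.19. Ear genes are near-identical copies, so reads may be divided among them. Ccr3, the eotaxin receptor, stood at 1.01, 6.80, 7.23 and 8.44 FPKM (2.23) and was already high at 48 h.

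Other eosinophil markers gave no such late step. Il5ra, the receptor for interleukin 5, stayed under 1 FPKM, at 0.167, 0.133, 0.147 and 0.167 FPKM, and Siglec5 stood at 1.62, 1.65, 1.30 and 1.87 FPKM (0.14). Ear11, a ribonuclease found in macrophages as well, went from 10.97 to 0.0759 FPKM (-3.48), opposite to its relatives. Basophil genes lay on the lower side. Mcpt8, the basophil protease, stood at 24.4, 1.40, 1.04 and 1.75 FPKM (-3.20), and Prss34, another, at 5.21, 0.875, 0.137 and 0.359 FPKM (-2.19). The mast cell proteases Cpa3 and Mcpt4 stood at 1.53, 1.85, 2.07 and 1.58 and at 1.205, 2.05, 2.59 and 1.91 FPKM, with changes of 0.03 and 0.40. Srgn, a granule proteoglycan of many blood cells, was the most abundant of this list in the on library and stood at 321, 95.7, 84.7 and 72.6 FPKM (-2.13).

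Set against the other off libraries, without the on library, few genes stood apart at 96 h by size. Of 11697 genes at 1 FPKM or more in any off library, 34 (0.291%) were at least 2-fold above both the 48 h and the 72 h level at 96 h, and 14 (0.12%) were at least 2-fold below both. Of the 34, 23 are short RNA genes and 2 are predicted genes, and the 6 farthest above were short RNA genes listed at 0 in the other 3 libraries: Mir3064, Snord87, Mir3096b, Mir25, Mir3074-1 and Mir684-2. The 9 outside the short RNA genes as defined above and the predicted genes are Prg3, Epx, Ear6, Prg2, Ear1, Rmrp, Rsc1a1, Hist1h4m and Rnu12. So 5 of the 9 encode eosinophil granule proteins. Rmrp, the RNA of an RNA-processing ribonuclease, stood at 22.5, 4.47, 3.76 and 17.3 FPKM and so returned towards its on level. Rsc1a1, a transporter regulator, stood at 0.759, 0.171, 0.234 and 2.09 FPKM, and Hist1h4m and Rnu12 reached only 1.48 and 1.01 FPKM.

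Of the 14 on the lower side, 5 are short RNA genes and 1 is predicted; the 6 farthest were Snord104, Snord55, Hba-a1, Hba-a2, Mir2861 and Snora52. The 8 outside these 2 classes are Hba-a1 and Hba-a2, listed at 0, then Stfa2l1, Stfa2, BC100530, BC096441, Asprv1 and Col1a1. Stfa2l1, Stfa2 and BC100530 belong to the stefin A family of protease inhibitors, which neutrophils make. Stfa2l1 stood at 10.8, 29.4, 32.3 and 9.36 FPKM, Stfa2 at 5.76, 6.51, 14.9 and 1.96 FPKM and BC100530 at 24.2, 20.01, 32.3 and 8.21 FPKM. These are close copies of one another, so the level of any 1 of them is uncertain. Asprv1, a protease of skin and neutrophils, stood at 3.78, 14.9, 15.4 and 4.94 FPKM. Col1a1, a chain of type I collagen, stood at 84.8, 110.0, 109 and 52.95 FPKM.

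Most listed genes of B and T cells, and of liver, muscle, bone, fat and lung, did not enter the comparison. Of 18 B and plasma cell genes only 3 entered. Pax5 and Igll1 are listed at 0 in all 4 libraries, and Cd79b, the member with the largest change, went from 12.8 to 3.94 FPKM (-1.49). The other 2, Cd22 and Sdc1, changed by -0.51 and 0.18. Of 18 T cell genes 7 entered, 1 higher (Lck, 1.09) and 1 lower (Cd5, -1.22). Cd3e did not exceed 0.139 FPKM, while Cd3d stood at 3.72, 13.7, 11.1 and 7.28 FPKM (0.81). The rest, Tcf7, Cd247, Cd4 and Cd8a, changed by 0.09, 0.19, 0.36 and 0.63. Of 19 natural killer cell genes 13 entered, 3 higher and 2 lower, with a median of 0.17. Ccl5, a chemokine, stood at 9.23, 30.1, 20.3 and 30.7 FPKM (1.63), Gzma, granzyme A, at 3.53, 11.51, 6.08 and 11.02 FPKM (1.41) and Ncr1, their defining receptor, at 0.701, 2.72, 3.18 and 3.14 FPKM (1.28). Nkg7, on the lower side of the natural killer cell list, changed by -1.49. The host strain lacks mature B and T cells and has impaired natural killer cells, as background.

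Dendritic cell genes had 3 of 18 higher and 1 lower. Clec9a, a receptor of cross-presenting dendritic cells, stood at 4.204, 19.6, 19.01 and 18.5 FPKM (1.90), Cd209a at 9.36, 44.1, 25.5 and 20.4 FPKM (1.05) and Xcr1 at 4.30, 11.1, 8.72 and 9.72 FPKM (1.02). Itgax and Flt3 were level, with changes of -0.02 and -0.03. Of 19 endothelial genes 2 were higher, beside 7.39% of all genes, namely Kdr at 1.02 and Stab2, a scavenger receptor of sinus endothelium, at 1.14. Of 15 stromal genes 1 was higher, near that share: Cxcl12, the niche chemokine, stood at 25.1, 75.2, 93.2 and 84.2 FPKM (1.71). The smooth muscle genes Tagln and Acta2 were lower (-1.44 and -1.28). The liver genes Alb, Fga and Ahsg, the fat gene Adipoq and the bone genes Ibsp and Sp7 are listed at 0 in all 4 libraries, and the lung gene Sftpc did not exceed 0.0669 FPKM. The few members of these lists that entered were Fabp4 (-1.74), Runx2 (-0.84), Acp5 (1.85) and Ctsk (-0.10) of bone and fat, Trf (0.22) and Cyp2e1 (0.10) of liver, Ckm (-1.91), Des (-0.85) and Tnnt3 (-0.24) of muscle, and Cdh1 (-2.24) of epithelium.

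Pathway lists were read beside these shifts. The pan-leukocyte sum went from 5961 to 2649 FPKM and the haem synthesis sum from 942 to 3486 FPKM between the same libraries, and the part of either in the pathway levels below was not tested.

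**Figure D5:**
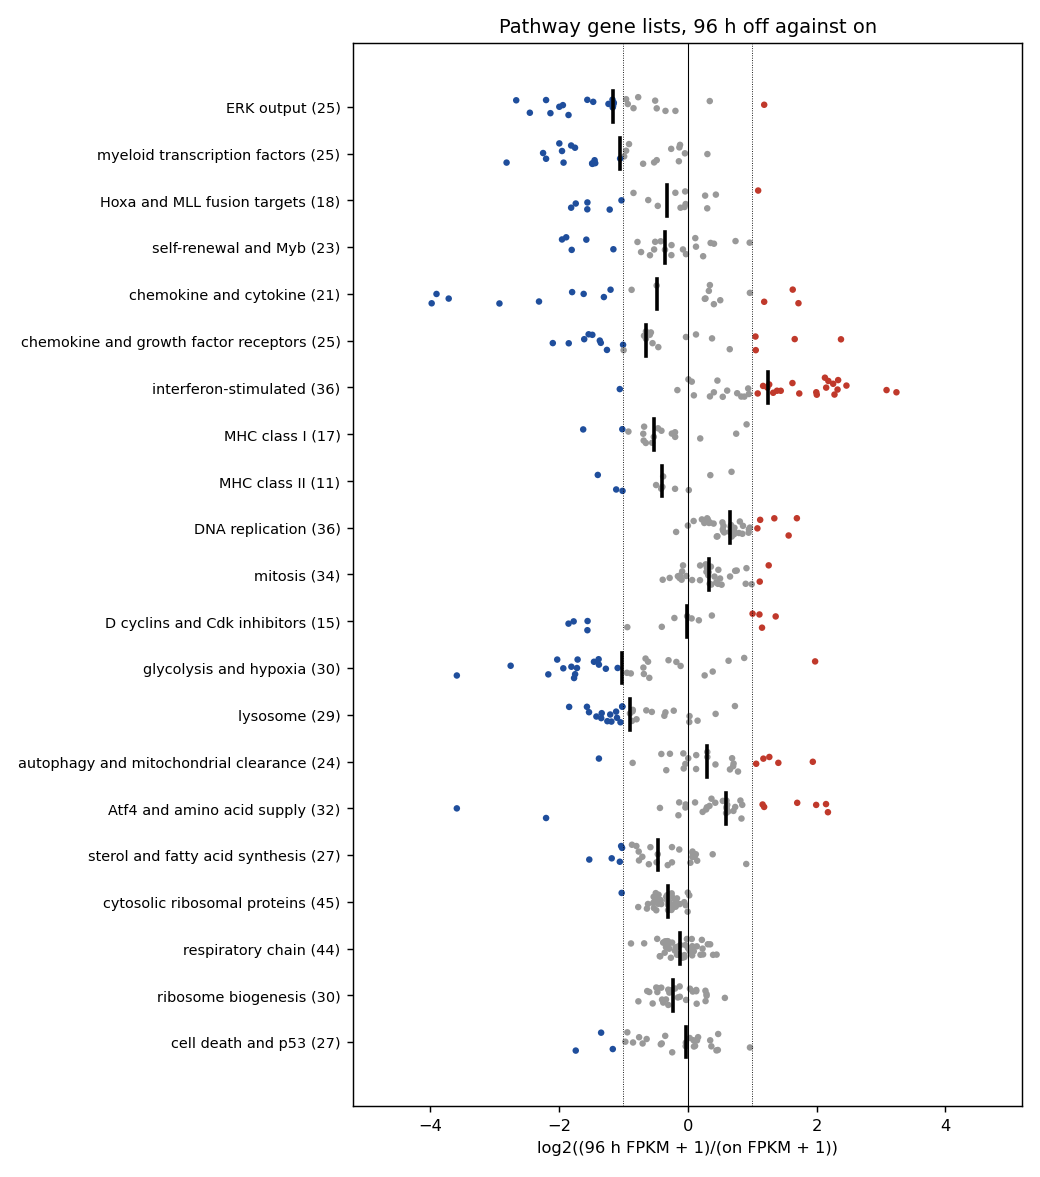
Pathway lists drawn in the same way: each point is a member at its log2 change from on to 96 h, bars are list medians, dotted lines mark 2-fold. ERK output, myeloid transcription factors and glycolysis have medians at or below -1.02, interferon-stimulated genes one of 1.25, DNA replication genes one of 0.66, and ribosomal protein genes lie within 2-fold except Rps27 (-1.03).

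Genes switched on by ERK signalling, the pathway downstream of NRAS, had 15 of 25 lower and 1 higher. Their median was -1.16 (-0.80 with a pseudocount of 5 FPKM), beside -0.06 over all genes and -1.15 over pan-leukocyte genes. Whether ERK output differed apart from the shift of the pan-leukocyte genes was not tested. Etv4, an ETS factor induced by ERK, stood at 5.73, 0.0617, 0.0908 and 0.0596 FPKM (-2.67), and its relative Etv5 stood at 14.02, 3.31, 3.36 and 2.91 FPKM (-1.94). Dusp6, a phosphatase that restrains ERK, stood at 37.6, 19.1, 18.5 and 12.1 FPKM (-1.56). Epha2, an ephrin receptor, stood at 9.82, 1.30, 0.978 and 0.973 FPKM (-2.46), and the immediate early genes Fos and Egr1 changed by -2.14 and -1.997. These genes were low from 48 h on, and the median of the list at 96 h was -0.03 against 72 h. Ccnd1, cyclin D1 and the most abundant in the on library, stood at 57.1, 26.8, 16.2 and 15.1 FPKM (-1.85). Myc differed less, at 38.9, 26.5, 24.3 and 27.05 FPKM (-0.51), and Il1rn, the interleukin 1 receptor antagonist, was the gene on the higher side (1.19).

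Of 25 transcription factors of the myeloid line, 13 were lower and none higher, with a median of -1.05 beside -1.15 over pan-leukocyte genes. Cebpa, which commits progenitors to the granulocyte line, stood at 38.7, 13.7, 9.97 and 7.34 FPKM (-2.25), and Cebpb, of monocytes and emergency granulopoiesis, at 57.9, 20.97, 14.5 and 11.8 FPKM (-2.20). Sfpi1, which encodes PU.1, stood at 191, 116, 85.3 and 69.2 FPKM (-1.45). PU.1 and GATA1 are known to oppose each other in lineage choice, as background. In these libraries Sfpi1 was lowest at 96 h and Gata1 highest (2.20), and a link between them was not tested. Cebpe, of later granulocytes, stood at 79.4, 90.3, 59.9 and 39.5 FPKM (-0.99).

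Targets of the MLL fusion were divided. Of 18, 6 were lower and 1 higher, with a median of -0.33. That median was -1.39 with a filter of 5 FPKM, -0.04 with no filter and -0.02 after rescaling outside globins, so its size depends on these settings. Id2, an inhibitor of helix-loop-helix factors, stood at 191, 62.2, 61.1 and 53.5 FPKM (-1.81), Bcl2, the survival gene, at 9.03, 2.70, 3.02 and 1.998 FPKM (-1.74) and Mef2c at 26.0, 9.42, 9.76 and 8.14 FPKM (-1.56). Hoxa9, the best known target, stood at 4.03, 2.61, 2.22 and 2.64 FPKM (-0.47) and Meis1, its partner, at 4.47, 5.70, 4.68 and 4.31 FPKM (-0.04). Hoxa7 changed by -1.21 and Pbx3, another partner, by 1.09. So Hoxa9 and Meis1 were within 2-fold of their on level at 96 h, while Hoxa7 was lower and Pbx3 higher. Of 23 genes tied to self-renewal, the subject of the series' title, 5 were lower and none higher, namely Gfi1 (-1.96), Cd34 (-1.89), Cd93 (-1.80), Cited2 (-1.58) and Gata2 (-1.16). Kit and Flt3 changed by 0.13 and -0.03. Cd47, the most abundant in the on library, stood at 120.03, 110.4, 121 and 130.2 FPKM (0.12), and Lmo2, the most abundant at 96 h, at 84.3, 126, 147 and 165 FPKM (0.96).

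Glycolysis and hypoxia genes had 15 of 30 lower and 1 higher, with a median of -1.02 beside -1.15 over pan-leukocyte genes. In 23 the 96 h level was the lowest. Ddit4, an inhibitor of mTORC1, stood at 139.8, 27.1, 18.7 and 10.7 FPKM (-3.59). Pgam1, phosphoglycerate mutase, stood at 315, 76.8, 67.3 and 45.9 FPKM (-2.75), and Pkm2, pyruvate kinase, at 735, 319, 246 and 162.6 FPKM (-2.17). Gapdh, the most abundant, stood at 1398, 562, 488 and 426 FPKM (-1.71). The phosphofructokinase genes went apart: Pfkp, the platelet form, stood at 48.7, 15.999, 13.4 and 11.99 FPKM (-1.94) and Pfkm, the muscle and red cell form, at 9.52, 25.02, 30.4 and 40.4 FPKM (1.98). Hk1, the hexokinase of red cells, changed by 0.88. Lysosomal genes had 14 of 29 lower and none higher, with a median of -0.90. Ctsz and Ctsa, cathepsins, changed by -1.84 and -1.57, while Ctsd, cathepsin D, changed by 0.43. After rescaling outside globins 9 lysosomal genes were past 2-fold.

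Chemokine and cytokine genes had 9 of 21 lower and 3 higher. Ccl2, the monocyte attractant, stood at 23.8, 0.999, 0.656 and 0.570 FPKM (-3.98). Ccl9 stood at 66.7, 10.02, 7.86 and 4.15 FPKM (-3.72) and Ccl7 at 9.04, 0.471, 0.295 and 0.320 FPKM (-2.93). The 3 on the higher side were Ccl5, Il1b and Il1rn, at 1.63, 1.72 and 1.19. Among 25 receptors 9 were lower and 4 higher. Ccr1, a receptor for Ccl9 and related chemokines, stood at 27.03, 9.74, 9.19 and 5.54 FPKM (-2.10), and Il3ra, the interleukin 3 receptor, at 11.2, 3.37, 2.44 and 2.37 FPKM (-1.85). The 4 on the higher side were Epor (2.38), Fpr1 (1.66), Csf3r (1.06) and Cxcr2 (1.05), that is 1 erythroid and 3 neutrophil receptors. Ccl2 and Ccl9 were low in all 3 off libraries and lowest at 96 h.

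Interferon-stimulated genes were on the higher side. Of 36, 21 were higher and 1 was lower, with a median of 1.25 (0.73 with a pseudocount of 5 FPKM); 7 of the 36 were under 1 FPKM in the on library and entered through the 96 h library. Isg15, a ubiquitin-like protein, stood at 17.3, 199.8, 97.6 and 172 FPKM (3.24). Rsad2, the antiviral protein viperin, stood at 15.2, 105, 108 and 137 FPKM (3.09). Irf7, which amplifies the response, stood at 7.77, 52.2, 25.1 and 41.5 FPKM (2.28). Isg15 and Irf7 were highest at 48 h, lower at 72 h and higher again at 96 h, and the median of the list at 96 h was -0.36 against 48 h and 0.33 against 72 h. Isg20, a nuclease and the most abundant of the list at 96 h, stood at 38.3, 125, 189 and 197 FPKM (2.34), higher at each later time. Ly6e, the member on the lower side, stood at 394, 240.5, 167 and 189 FPKM (-1.06), and Ifitm3, an antiviral membrane protein, at 218, 310.5, 166 and 195 FPKM (-0.16).

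The promoter of Isg15 is shown as that of the most changed gene of this list. It lies on the minus strand at chr4:156200819-156201068 (RefSeq, GRCm38.p6), the 250 bases before the start. Capitals mark the interferon response motif, searched as GAAA, any 2 bases and GAAA on both strands with overlapping matches kept.

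Isg15: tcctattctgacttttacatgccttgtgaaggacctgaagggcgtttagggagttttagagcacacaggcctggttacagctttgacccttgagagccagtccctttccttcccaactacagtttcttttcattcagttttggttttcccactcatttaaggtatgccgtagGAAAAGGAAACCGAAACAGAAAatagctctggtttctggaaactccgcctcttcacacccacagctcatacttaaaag

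The 3 matches start 78, 72 and 66 bases before the start, and neighbouring matches overlap. Of the 36 genes 25 had a promoter in the table, with 30 promoters, and 10 of the 30 (33.3%) held the motif, beside 2.98% of all 32851 promoters and 3.45% of the erythroid ones. Genes of antigen presentation, which interferon also induces, did not share the direction. None of 17 MHC class I genes was higher and 2 were lower, Psmb8 (-1.63) and Psmb10 (-1.02), both subunits of the immunoproteasome. None of 11 MHC class II genes was higher and 3 were lower, the H2-DM chains H2-DMb1 (-1.40), H2-DMa (-1.11) and H2-DMb2 (-1.02). B2m stood at 839, 997, 686 and 732 FPKM and Cd74 at 2799.7, 2893, 2113 and 2101 FPKM.

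Genes of DNA replication were highest late. Of 36, 5 were at least 2-fold higher and none lower, with a median of 0.66 (10 higher after rescaling outside globins), and in 34 of the 36 the 96 h library had the highest level of the 4, beside 26.5% of all genes. Ccne1, cyclin E1, stood at 24.999, 51.3, 63.8 and 83.1 FPKM (1.69). Cdc6, which loads the replicative helicase, stood at 13.6, 26.5, 34.2 and 42.2 FPKM (1.57). Pcna, the sliding clamp and most abundant, stood at 372, 409.7, 482 and 545 FPKM (0.55), and Mcm2 of the helicase at 71.98, 86.6, 105 and 139 FPKM (0.94). Genes of mitosis had 2 of 34 higher, beside 7.39% of all genes, with a median of 0.33, and 5 of 34 after rescaling. The 2 were Mki67 at 110.4, 195, 308 and 265 FPKM (1.26) and Ube2c at 119, 153, 206 and 260.1 FPKM (1.12). The D cyclins parted: Ccnd2 stood at 41.1, 16.8, 15.02 and 13.3 FPKM (-1.56), and Ccnd3, the D cyclin of erythroblasts, at 167, 267, 233 and 363 FPKM (1.11). The retinoblastoma gene Rb1 changed by 1.36 and Cdkn2a, an inhibitor, by -1.77. Cdk6, the partner of D cyclins in progenitors, changed by -1.56, and Cdkn1b, the inhibitor p27, by 1.01.

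Housekeeping lists lay within 2-fold but for 1 gene. Of 45 cytosolic ribosomal protein genes, none was higher and 1, Rps27, was lower (-1.03), with a median of -0.31; the summed level went from 60646 to 47520 FPKM. Outside globins their share of summed FPKM was 12.4%, 9.88%, 9.26% and 11.1%, so it was lowest at 72 h and nearer the on library at 96 h. None of 44 respiratory chain genes and none of 30 ribosome biogenesis genes passed 2-fold. Processed copies of ribosomal protein genes are many, so single values are uncertain.

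Genes of amino acid supply under the stress factor Atf4 had 6 of 32 higher and 2 lower, with a median of 0.60. Asns, asparagine synthetase, stood at 24.2, 75.5, 80.5 and 111 FPKM (2.15). Trib3, a pseudokinase induced by Atf4, stood at 0.974, 7.63, 5.34 and 7.93 FPKM (2.18), and Slc6a9, a glycine transporter that red cells use for haem, at 11.996, 32.7, 48.6 and 50.8 FPKM (1.99). In 22 of the 32 the 96 h level was the highest of the 4. Ddit4 and Cebpb, on the lower side, belong to other lists as well.

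With short RNA and predicted genes set aside, the remaining genes among the 15 largest changes in each direction fall in no list. On the higher side, Abcg4, a lipid transporter, stood at 3.41, 19.5, 24.95 and 32.7 FPKM (2.93). Ccnb1ip1 stood at 0.339, 6.74, 7.56 and 8.60 FPKM (2.84), Cd59a, which shields cells from complement, at 4.30, 22.05, 31.99 and 35.9 FPKM (2.80) and Fam55b at 9.08, 34.4, 57.7 and 67.9 FPKM (2.77). These 4 were highest at 96 h. On the lower side, Cdh17, a cadherin of gut epithelium, stood at 33.6, 0.218, 0.316 and 0.145 FPKM (-4.92), the largest change apart from the alpha globins and the genes set aside. Gem, a small GTP-binding protein, stood at 41.3, 1.41, 1.67 and 1.52 FPKM (-4.07), Penk, the enkephalin precursor, at 13.7, 2.86, 0.6997 and 0.238 FPKM (-3.57) and Dmkn, dermokine, at 20.8, 1.10, 1.02 and 1.12 FPKM (-3.36). Cdh17, Gem and Dmkn were near their 96 h level by 48 h, and Penk was lower at each time.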

How the data were processed

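The authors deposited FPKM per gene in tables that each pair the on library with 1 off library; 3 such tables were used, and no column of another series was found (0 columns). The submitters' processing notes name TopHat2 2.0.4, Cuffdiff and the mouse build mm9; no source used here gives the annotation or the strand setting. The on library was read from the columns headed 0 hours. The 48 h and 72 h tables were brought to the scale of the 96 h table by factors of 1.056 and 1.0024; after this 99.96% and 99.94% of 15825 on values agreed within 0.1%. Depth was estimated from the most frequent product of FPKM and length among low genes with 1 annotated transcript.

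Changes were log2 ratios with a pseudocount of 1 FPKM and a filter of 1 FPKM in either library, and 2-fold was the size called, with no test because each group is 1 library. Scripts ran in Python 3.11.15 with numpy 2.4.6 and pandas 2.3.3, and were tested on simulated data. Members and lists were chosen with earlier results of these data known. Genes named are the 15 largest changes in each direction (short RNA and predicted genes aside), in each list the 2 largest in each direction past 2-fold, the most abundant and those whose role is described, all members of lists with up to 10, and the genes at 96 h farthest from the other off libraries. Promoters are RefSeq's, on GRCm38.p6, matched by symbol; no coordinate was taken from the mm9 files. A few genes that this rule names are not reported here. Pseudocounts of 0.1 and 5 FPKM, other filters and other scalings were tried.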

Additional observations from a re-analysis of the deposited data

Results flagged for a closer look

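In 3 genes outside short RNAs, changes were at least 2-fold in opposite directions at 96 h and at 48 h or 72 h. The difference between times was not tested. Hba-a1 and Hba-a2 are listed at 0 at 96 h, so their values there, -11.52 and -7.42, are set by the pseudocount and are no measured change. At 48 h and 72 h Hba-a1 changed by 1.56 and 1.99, and Hba-a2 by 1.56 and 1.29. Stfa2 changed by -1.19 at 96 h and by 1.23 at 72 h.

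Several short RNA genes, some of them named above without values, were listed above 0 at 96 h and at 0 in the on library. Whether these are true levels was not tested. The value listed for Mir3064 exceeds the 485236 FPKM summed over all genes outside short RNAs at 96 h. Mir3064 was listed at 1950000 FPKM, Snord87 at 21806 FPKM, Snord83b at 1269 FPKM, Mir3096b at 224 FPKM, Mir2861 at 161.6 FPKM and Mir25 at 97.9 FPKM. Mir3074-1 was listed at 78.6 FPKM, Mir684-2 at 64.2 FPKM, Mir3101 at 44.6 FPKM, Snord16a at 28 FPKM and Snora33 at 26.5 FPKM. Of these, Mir2861 was listed at 8808 and 2450 FPKM at 48 h and 72 h, Snord83b at 47676 and 0 FPKM, and the other 9 at 0 in both.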

How the results depend on the processing

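With a pseudocount of 5 FPKM, 446 genes were higher and 470 lower at 96 h; the other 7 settings gave counts within 1.5 times of the 867 and 957 reported, from 699 to 1258 higher and from 673 to 1287 lower, the rescaling outside globins giving 1170 and 673. Genes at 96 h above both other off libraries numbered 54 with a pseudocount of 0.1 FPKM and 19 with 5 FPKM, against 34, and genes below both numbered 33 and 8, against 14. Of 49 lists, 14 had a median past 2-fold, 7 in each direction, and none of their 112 values under 8 settings changed sign. For most settings this could not have come out otherwise: a pseudocount keeps the sign of every change, and the scalings moved list medians by at most 0.31. The lung and epithelial list, 1 of the 7 on the lower side, rests on 1 gene, Cdh1. Its median went to -0.96 with a pseudocount of 5 FPKM and to -0.06 with no filter. Rescaling outside globins took the medians of the pan-leukocyte, monocyte, myeloid transcription factor and glycolysis lists to -0.96, -0.88, -0.86 and -0.83, inside 2-fold. A pseudocount of 5 FPKM took the interferon-stimulated, ERK output, monocyte, myeloid transcription factor and glycolysis medians to 0.73, -0.80, -0.93, -0.93 and -0.87, and setting the median of all genes to 0 took the last 3 to -0.99, -0.98 and -0.95. After rescaling, lower genes went from 3 to 1 in the secondary granule and MHC class II lists and from 5 to 2 in the sterol list. The share of summed FPKM of all 49 lists at 96 h moved by over 1.5 times when short RNAs were left in the sum, since these hold 1974021 FPKM there, and the globin share was 6.86% without and 11.9% with the row Beta-s, added after seeing the data. No paired analysis was possible because each group is 1 library and the groups hold no matched replicates. For the same reason no replicate could be left out. With about 43.4 reads at 1 FPKM over 2 kb, genes near 1 FPKM rest on few reads, fewer still where the transcript is short.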

Other observations

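Genes of autophagy and mitochondrial clearance, which maturing red cells use to shed organelles, had 5 of 24 higher at 96 h and 1 lower, with a median of 0.30. Optn, an autophagy receptor, stood at 8.20, 23.1, 31.4 and 34.4 FPKM (1.94; levels again in the order on, then 48 h, 72 h, 96 h), and Bnip3l, the receptor for mitochondria in reticulocytes, at 46.9, 76.5, 114 and 107 FPKM (1.17). Bnip3, its relative and a hypoxia gene, stood at 10.4, 4.15, 4.30 and 3.36 FPKM (-1.38). Of 27 cell death genes none was higher and 3 were lower, beside 8.16% of all genes: Bcl2 (-1.74), Casp8 (-1.35) and Bak1 (-1.17). Bcl2l1, whose product Bcl-xL keeps erythroblasts alive, stood at 35.01, 58.5, 78.7 and 69.3 FPKM (0.97).

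Sterol and fatty acid synthesis genes had 5 of 27 lower and none higher at 96 h, among them Insig1, at 17.4, 8.33, 7.03 and 7.11 FPKM (-1.18). Among heat shock and handling genes, Hsph1, a chaperone, stood at 9.87, 44.9, 32.7 and 32.3 FPKM (1.61), while Fos changed by -2.14 and Hspa1a stayed under 1 FPKM, at 0.254, 0.613, 0.207 and 0.230 FPKM. Acp5, an acid phosphatase of osteoclasts and macrophages, stood at 26.0, 63.1, 73.4 and 96.04 FPKM (1.85) and climbed at each time, while Ctsk, the osteoclast cathepsin, stood at 3.76, 2.85, 4.205 and 3.45 FPKM (-0.10). The linker histone H1f0 and the variant histone H2afy were the 2 of 17 histone genes on the lower side, at -1.82 and -1.94.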
